A study of Mus musculus with 47 samples.

Results

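The 10 genes described here belong to the cellular response to low oxygen: P4ha1, P4ha2, Egln3, Ankrd37, Vegfa, Car9, Slc2a1, Adm, Epas1 and Hif1a. They were followed in mouse intestinal mucosa, intestinal adenoma and organoids. They were picked by symbol from the 24062 gene rows of the count table, around P4ha1, which had been called in an earlier comparison of adenoma-prone with wild-type mucosa. That comparison, Min mucosa against wild-type mucosa, is therefore given below as a description with no test. All 10 passed the filter on low counts in tissue (13657 genes) and in organoids (13395 genes).

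RNA was sequenced from 47 libraries in 17 groups, all from mice aged 15 to 19 weeks. The 39 tissue libraries form 13 groups of 3. Adenoma and normal mucosa of mice carrying the APC min allele (called Min here) and mucosa of wild type mice were taken from 4 backgrounds: C57BL/6 (B6), CSS C57BL/6 chr5 PWD (C5), a consomic strain with chromosome 5 of PWD/Ph in an otherwise C57BL/6 genome, the F1 cross of B6 and C5 (C5F1), and the C57BL/6xPWD F1 cross (B6xPWD). PWD/Ph (PWD) was represented by wild-type mucosa. The 8 organoid libraries, all with the APC min genotype, are 4 groups of 2: B6 and C5 cultures, untreated or given 5-aza-cytidine (AZA), a cytidine analogue that blocks DNA methylation. Its dose and time, and whether the libraries of a group come from separate mice, are not stated in the labels, so the spread that p-values rest on may be technical. Min mice form intestinal adenomas when the remaining Apc copy is lost, and the allele is present in every cell of the mouse, mucosa included.

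In cells with enough oxygen, prolyl hydroxylases of the Egln family mark the transcription factor subunits HIF-1α (from Hif1a) and HIF-2α (from Epas1) for destruction through the Vhl ubiquitin ligase. When oxygen falls, the subunits persist, pair with Arnt and bind the core motif RCGTG near genes for glucose uptake, angiogenesis, acid balance and collagen processing. HIF activity is set mainly through protein stability, which RNA counts do not measure. The lumen-facing epithelium of the intestine is a tissue of physiologically low oxygen.

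P4ha1 and P4ha2 encode the catalytic subunits of collagen prolyl 4-hydroxylase, which makes the 4-hydroxyproline that stabilises the collagen triple helix. Egln3 is itself a HIF prolyl hydroxylase and a HIF target, Ankrd37 is a HIF-induced ankyrin repeat protein, Vegfa is the angiogenic growth factor, Car9 is a membrane carbonic anhydrase, Slc2a1 is the glucose transporter GLUT1, and Adm is the vasodilator peptide adrenomedullin. None of the 10 lies on chromosome 5, the chromosome exchanged in C5. In mm10 (GRCm38), P4ha1 is at chr10:59323296-59373304, P4ha2 at chr11:54100095-54131665, Slc2a1 at chr4:119108711-119137983, Car9 at chr4:43506966-43513729 and Adm at chr7:110627661-110629820. Egln3 lies at chr12:54178981-54203860, Hif1a at chr12:73901375-73947530, Ankrd37 at chr8:45996902-46005707, Vegfa at chr17:46016993-46032369 and Epas1 at chr17:86753700-86833410, as annotated by GENCODE vM21.

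Promoter windows of 300 bases (250 before and 50 after the annotated start) were read from RefSeq (GRCm38.p6), which matched 9 of the 10 genes in 10 windows. ACGTG, one of the spellings of the HIF core motif, was searched on both strands and was present in 8 of the 10 windows, against 19.6% of 32851 windows genome-wide. The other spelling, GCGTG, was found in 6 of the 10 windows and 32.4% of all windows. Either spelling occurred in 9 of the 10 windows and in 43.8% of all windows, and the spellings can lie side by side or overlap on opposite strands. Adm held only GCGTG. Vegfa had 2 windows: the one at its outer start (bases upstream of it at chr17:46032378-46032627) held neither spelling, and its matches lie in an internal window, in which 218 of the 250 upstream bases are annotated exon. RefSeq starts differ from the GENCODE gene ends for other members too. The Ankrd37, P4ha2 and Hif1a windows lie inside the genes as placed above. Of the 250 upstream bases, 60 of Car9, 34 of Slc2a1 and 17 of Ankrd37 are annotated exon. The Car9 motif lies in exon, and the ACGTG of Slc2a1 runs into exon at its end. A match is a stretch of letters, not a measured binding site. The 29-base stretch nearest to each start that holds ACGTG (for Adm, GCGTG) is shown for the 8 members with a window other than Hif1a, the subunit gene, read along the gene's own strand, with the motif or its reverse complement (CACGT or CACGC) in capitals.
P4ha1, chr10:59323268-59323296: tgtgacagagcgCACGTagcgagggctgc
P4ha2, chr11:54100922-54100950: cgggaggtggggACGTGgcggaggctcaa
Egln3, chr12:54204087-54204115: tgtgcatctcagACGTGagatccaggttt
Ankrd37, chr8:45999840-45999868: cagtgtttgggtACGTGaggccgcagcgg
Vegfa, internal window, chr17:46025358-46025386: ggagtgcgtgccCACGTcagagagcaaca
Car9, chr4:43506996-43507024: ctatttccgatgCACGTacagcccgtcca
Slc2a1, chr4:119108697-119108725: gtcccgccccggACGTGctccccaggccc
Adm, chr7:110627591-110627619: ggcaaatctgacCACGCccaccgtccgcc

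Counted from the RefSeq start, the motif of P4ha1 began at position -16, that of Car9 at -18 and that of Slc2a1 at -36. P4ha2 held ACGTG at 2 places, -78 and 11, and the nearer one lies after the start. The 250 bases upstream of P4ha1 (chr10:59323046-59323295, 69.6% G or C) are shown in full because P4ha1 is the gene around which the list was built. They overlap no annotated exon, and capitals mark its ACGTG (as CACGT) and its 2 GCGTG matches.
P4ha1 upstream: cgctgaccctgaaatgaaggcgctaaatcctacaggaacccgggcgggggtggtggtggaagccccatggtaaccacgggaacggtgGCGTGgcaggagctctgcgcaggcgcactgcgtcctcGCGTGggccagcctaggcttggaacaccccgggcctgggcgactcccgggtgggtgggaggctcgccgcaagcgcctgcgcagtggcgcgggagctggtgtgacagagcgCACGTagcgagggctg

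Gene counts per library ran from 2726505 to 20070696 in tissue (median 5831947) and from 4389898 to 8373764 in organoids (median 6386046). Ribosomal Rn45s took 16.4 to 72.7% of tissue gene counts and 0.76 to 1.61% of organoid gene counts. Levels below are CPM (counts scaled to a common library size) after TMM normalisation, done apart for tissue and for organoids, so a level in one is not compared with a level in the other. No epithelial marker of the 10 was at 0 in any group, and the summed level of the 10 Wnt target markers of adenoma had a median of 384 CPM in adenoma (148 to 830) and of 85.5 CPM in Min mucosa (66.8 to 102). Correlations between log2 levels of libraries within a group were lowest in B6xPWD adenoma (0.890) and in C5 organoids with AZA (0.905).

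P4ha1 RNA in tissue ranged from 6 to 456 reads per library. Wild-type mucosa of B6 held 7.54, 7.20 and 9.64 CPM, that of C5 9.85, 10.8 and 7.34, and that of PWD 9.65, 14.6 and 11.6. The F1 crosses held 6.76, 8.44 and 7.61 CPM (C5F1) and 4.62, 5.21 and 5.93 CPM (B6xPWD). Min mucosa of B6 held 20.1, 20.9 and 19.6 CPM and that of C5 8.82, 17.5 and 13.3, while the crosses held 4.56, 14.1 and 13.6 (C5F1) and 10.2, 13 and 6.32 (B6xPWD). In these values the B6 Min libraries had the highest mean of all 13 groups and did not overlap the next, C5 adenoma. The highest B6xPWD adenoma library (20.1 CPM) lay within their range. In B6 and B6xPWD every Min library lay above every wild-type library, while the lowest C5F1 Min library, at 6 reads, fell below its wild-type group and the C5 groups overlapped.

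B6 adenomas held 15.5, 16.3 and 16.4 CPM of P4ha1 and C5 adenomas 13.3, 19.5 and 17.1, while those of the crosses held 11.6, 14.8 and 16.2 (C5F1) and 13.2, 20.1 and 8.69 (B6xPWD). In the order of group means, B6 Min mucosa (20.2 ± 0.68 CPM, SD, n = 3) came first and B6xPWD wild-type mucosa (5.25 ± 0.66) last, and neither overlapped its neighbour in that order. The 11 groups between them each overlapped the next. By single libraries the ends were not apart: the highest B6xPWD adenoma library (20.1 CPM) lay within the B6 Min range. The lowest C5F1 Min library (4.56 CPM) lay below all B6xPWD wild-type libraries. The B6 adenomas lay below the B6 Min mucosa without overlap, whereas adenoma and Min mucosa overlapped in C5F1, C5 and B6xPWD.

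Per kilobase of exon, the scale on which genes can be set beside each other, wild-type mucosa of the 4 backgrounds (n = 12) held most of Egln3 (21.1 CPM per kb), followed by Hif1a (11.3), Car9 (10.9), Vegfa (8.41), Epas1 (5.11) and Slc2a1 (4.23). Ankrd37 (2.30), P4ha1 (1.84), Adm (1.71) and P4ha2 (0.118) were the lowest. In adenoma Egln3 (37.8) and Hif1a (32.7) again led and Slc2a1 came next (21.4), ahead of Car9 (19.2) and Vegfa (9.32). In control organoids, scaled apart, Egln3 (103.5) and Ankrd37 (73.7) led, P4ha1 stood at 30.7, and Epas1 (5.30) and P4ha2 (4.72) were the lowest.

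**Figure D1:**
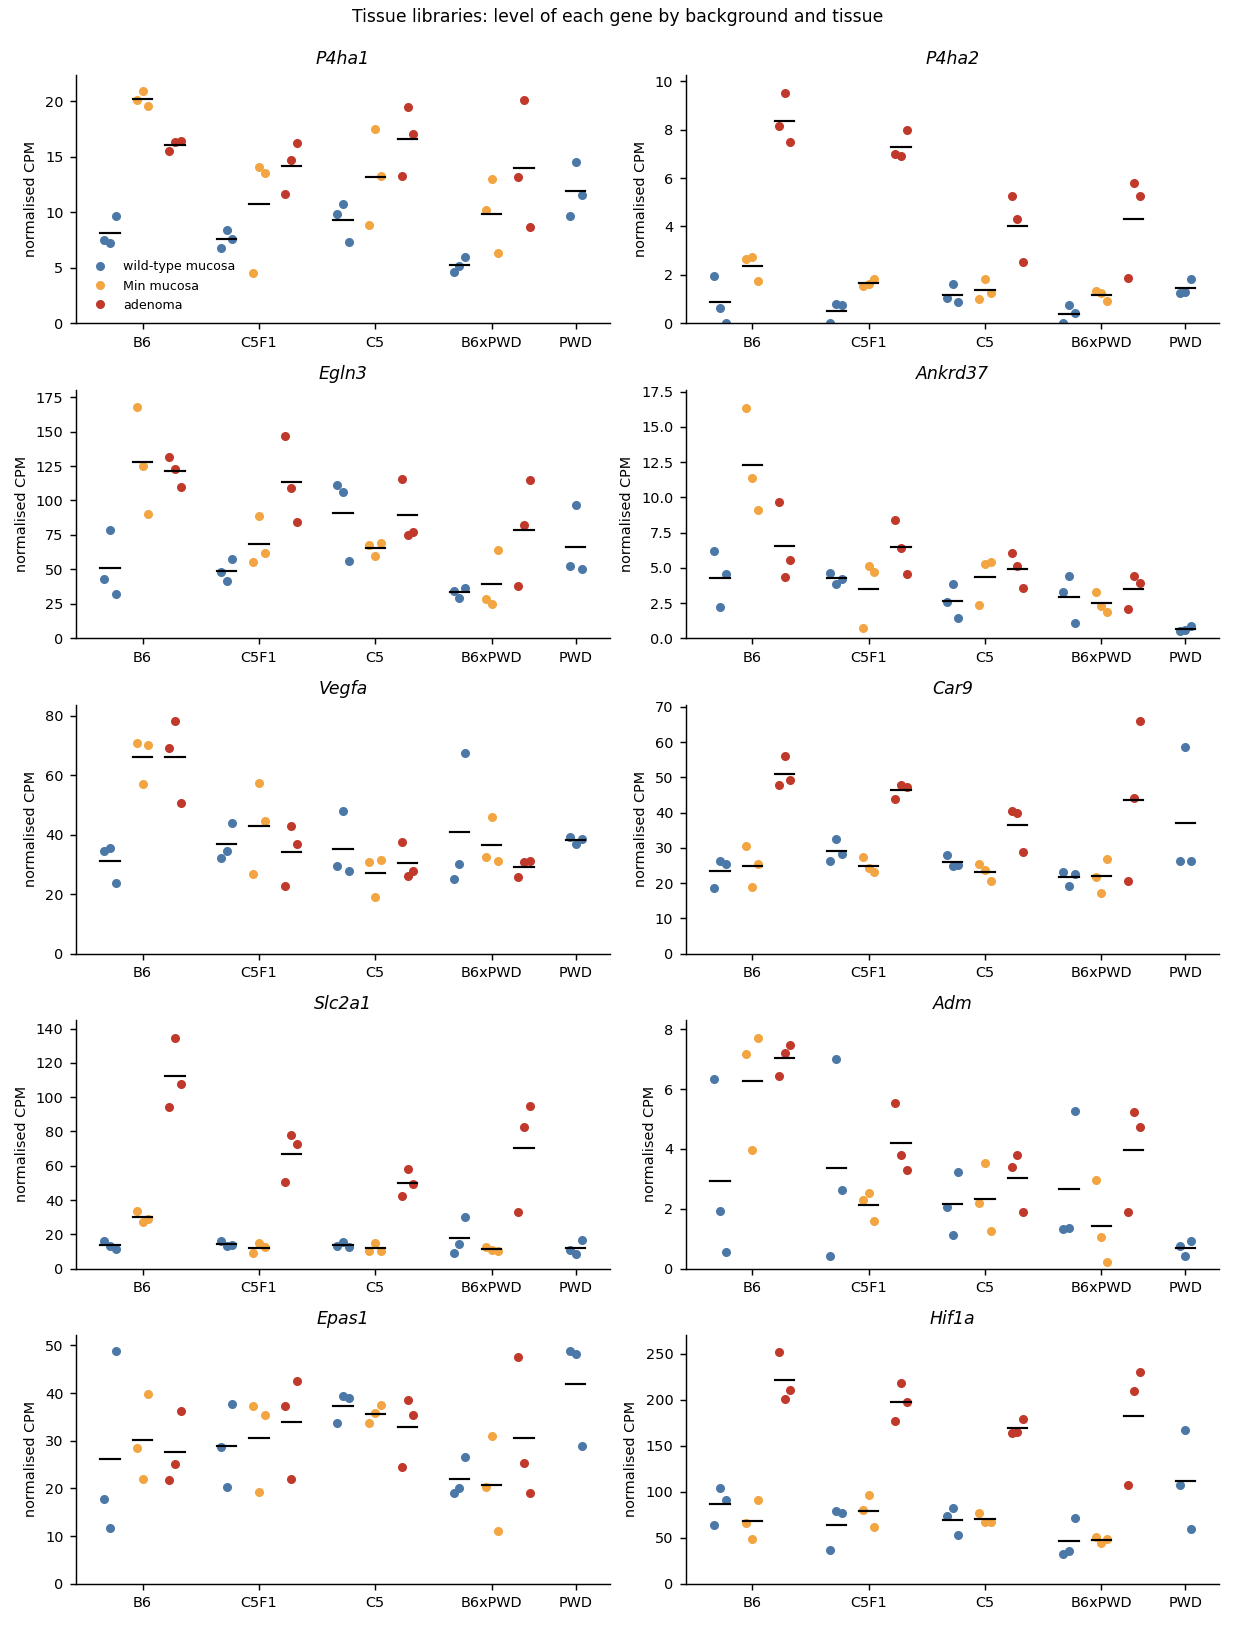
Normalised CPM (vertical axes, from 0) of each of the 10 genes in the 39 tissue libraries, grouped by background along the horizontal axis and coloured by tissue, with a bar at the mean of each group of 3. Slc2a1, Hif1a and P4ha2 stand highest in adenoma, while P4ha1 is highest in B6 Min mucosa at 19.6 to 20.9 CPM.

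Fitted over the 4 backgrounds, P4ha1 was 1.81-fold higher in Min than in wild-type mucosa (log2 0.86 ± 0.15, SE, n = 12 and 12), the value that led to its choice. P4ha2 differed by log2 1.04 ± 0.29, Ankrd37 by 0.52 ± 0.23 and Egln3 by 0.39 ± 0.18. The remaining 6 members lay between -0.16 (Adm) and 0.19 (Vegfa), with Hif1a at 0.01 and Epas1 at 0.05. The share of all genes called in this contrast was 0.00732%, which is 1 gene, P4ha1 itself.

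Within B6, 9 of the 10 fitted changes were above 0 with a median of 1.08, and 0.52% of all genes were called. The B6 values were 1.36 ± 0.29 for P4ha1, 1.52 ± 0.43 for Ankrd37, 1.30 ± 0.36 for Egln3, 1.13 ± 0.51 for P4ha2, 1.11 ± 0.32 for Slc2a1 and 1.06 ± 0.30 for Vegfa, with Hif1a at -0.34 ± 0.32. The median over the 10 genes was -0.02 in both C5 and B6xPWD and 0.15 in C5F1, and 0% of genes were called in each of these backgrounds. P4ha1 was above 0 in every background (0.91 in B6xPWD, 0.62 in C5F1 and 0.53 in C5), and so was P4ha2. Whether the B6 difference exceeds that of the other backgrounds was not tested, because this contrast chose the genes.

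Ankrd37, the HIF-induced ankyrin repeat gene, stood at 16.3, 11.4 and 9.10 CPM in B6 Min mucosa against 6.19, 2.24 and 4.54 in B6 wild-type mucosa. Vegfa stood at 70.8, 57.0 and 70.1 CPM against 34.4, 35.4 and 23.8. For both genes the 3 Min libraries lay above the 3 wild-type libraries. The summed fibroblast markers over the 4 backgrounds had medians of 572 CPM in Min and 404 CPM in wild-type mucosa (ranges 351 to 735 and 240 to 620), and the endothelial markers 103 and 85.6 CPM (ranges 48.2 to 142 and 28.5 to 105). Within B6 the fibroblast sums were 460 to 616 CPM in Min and 360 to 474 CPM in wild-type mucosa, and the endothelial sums 114 to 142 and 87.5 to 105 CPM. The red blood cell markers stood furthest apart, at 9.04 to 25.3 CPM in B6 Min and 0.57 to 1.44 CPM in B6 wild-type mucosa, without overlap, and the smooth muscle sums were 1647 to 3111 and 1228 to 1658 CPM. The part of these markers in the values of P4ha1 and the other members was not tested, and in bulk samples fewer cells of a type and less RNA per cell cannot be told apart.

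Adenoma was compared with Min mucosa of the same backgrounds to ask what differs in the tumour. Of the 9 members tested, 5 rose in adenoma and none fell (edgeR's quasi-likelihood test, adjusted p under 0.05), against a background of 23.7% of all genes called higher and 21.5% called lower. The count at an unadjusted p under 0.05 of members lower in adenoma was also 0, and DESeq2 called 5 members. Slc2a1, Hif1a and P4ha2 showed the largest rises. Over the 10 members the median log2 change was 0.61, against 0.01 for all genes tested. P4ha1 shares the Min mucosa libraries with the contrast that chose it and is described only, at 0.19 ± 0.14.

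Slc2a1, the glucose transporter, rose 4.74-fold (log2 2.24 ± 0.16, adjusted p = 4.30e-13) and was higher in adenoma in 12 of 12 same-numbered pairs. B6 adenomas held 94.1, 135 and 108 CPM and C5 adenomas 42.4, 58.3 and 49.5, and the crosses held 50.3, 78.1 and 72.4 (C5F1) and 32.9, 82.7 and 95.1 (B6xPWD). Min mucosa held 27.4 to 33.8 CPM in B6 and 9.12 to 15.2 CPM over the other backgrounds. Adenoma and Min mucosa did not overlap in any background, and the B6 mean was the highest in both tissues, although B6 and B6xPWD adenomas overlapped.

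Hif1a, the HIF-1α subunit gene, rose 2.93-fold (log2 1.55 ± 0.16, adjusted p = 1.93e-09), again in 12 of 12 pairs. Adenoma ranged from 107 to 252 CPM with a median of 200 CPM, and Min mucosa from 44.8 to 97.1 CPM with a median of 66.8 CPM. The lowest adenoma library, B6xPWD replicate 1, was above the highest Min library. Epas1, the gene of the HIF-2α subunit, showed no such difference: adenoma ranged from 19.0 to 47.5 CPM and Min mucosa from 11 to 39.9 CPM (log2 0.12 ± 0.19, 95% interval -0.26 to 0.50, adjusted p = 0.653). Among the genes per kilobase of exon, Hif1a stood at 32.7 ± 6.40 CPM per kb in adenoma and Epas1 at 5.59 ± 1.68 (SD, n = 12 each).

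P4ha2, a collagen hydroxylase subunit like P4ha1, rose 3.52-fold in adenoma (log2 1.82 ± 0.22, adjusted p = 4.21e-08) in 12 of 12 pairs. B6 adenomas held 8.15, 9.5 and 7.47 CPM, C5 adenomas 5.25, 4.29 and 2.53, and the crosses 6.98, 6.93 and 7.98 (C5F1) and 1.89, 5.80 and 5.27 (B6xPWD), against 0.94 to 2.74 CPM in the 12 Min libraries. Adenoma and Min mucosa did not overlap within any background. Per kilobase of exon, P4ha1 stood at 3.70 ± 0.78 CPM per kb in adenoma and P4ha2 at 0.96 ± 0.37. In wild-type mucosa P4ha2 was at 0 counts in 3 libraries, 1 each of B6, C5F1 and B6xPWD, where 3 counts would have read 1.70, 1.27 and 0.99 CPM.

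Car9, the carbonic anhydrase gene, rose 1.86-fold (log2 0.90 ± 0.14, adjusted p = 3.09e-06) in 11 of 12 pairs. It ranged from 20.6 to 66.1 CPM in adenoma (median 45.7) and from 17.3 to 30.4 CPM in Min mucosa (median 24.0). The 2 lowest adenoma libraries, B6xPWD replicate 1 (20.6 CPM) and C5 replicate 3 (28.9 CPM), fell within the range of the Min values. Egln3, the HIF prolyl hydroxylase, rose 1.44-fold (log2 0.52 ± 0.18, adjusted p = 0.0165) in 10 of 12 pairs, with wide overlap: 38.1 to 147 CPM in adenoma (median 109) and 25.1 to 168 CPM in Min mucosa (median 66.0). The call on Egln3 rested on single libraries, with log2 0.40 and adjusted p = 0.0680 without B6xPWD adenoma replicate 3, and 0.44 and 0.0507 without C5F1 adenoma replicate 1 (edgeR). Over its 31 alternatives its adjusted p ran from 0.00104 to 0.0680.

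Adm differed by log2 0.70 ± 0.31 (adjusted p = 0.0650) and was higher in 9 of 12 pairs, at 1.89 to 7.47 CPM in adenoma and 0.23 to 7.70 CPM in Min mucosa. With a block for the same-numbered pairs it passed (log2 0.68, edgeR adjusted p = 0.0259). It also passed without B6xPWD adenoma replicate 1, B6xPWD Min replicate 1 or C5 Min replicate 2 (log2 0.77, 1.0 and 0.82, edgeR adjusted p = 0.0363, 0.0158 and 0.0403), and with only the compared groups in the fit (0.70, 0.0235). Vegfa, the angiogenic factor, did not pass: adenoma ranged from 22.7 to 78.3 CPM and Min mucosa from 18.9 to 70.8 CPM (log2 -0.13 ± 0.15, 95% interval -0.41 to 0.16), and adenoma was lower in 9 of 12 pairs. Ankrd37 gave log2 0.08 ± 0.22 with an interval from -0.35 to 0.50.

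**Figure D2:**
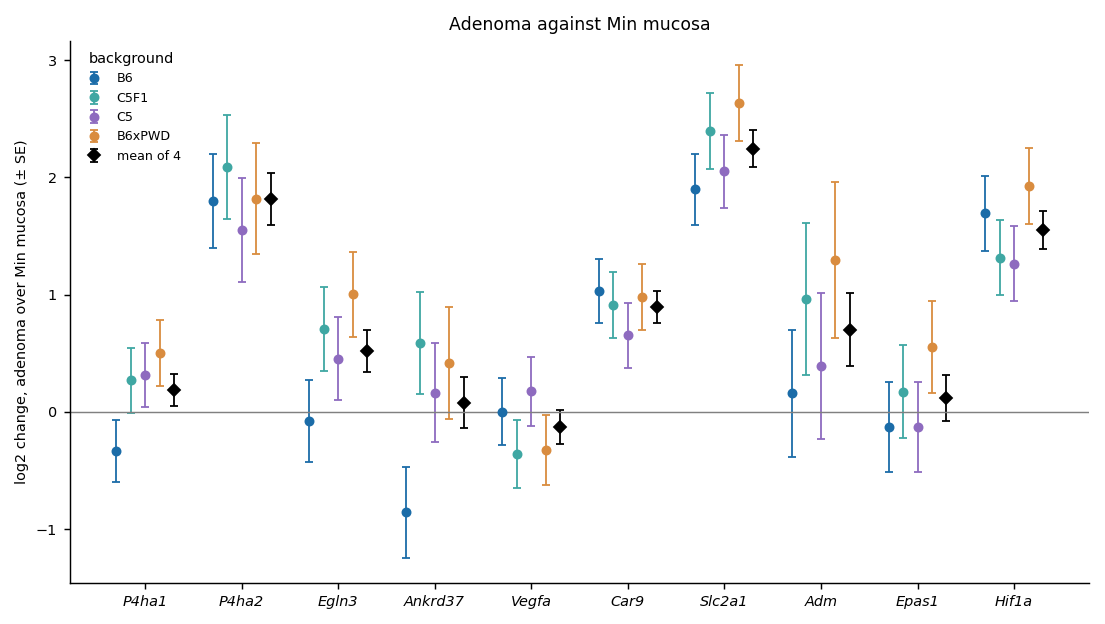
Log2 change of each gene in adenoma over Min mucosa (vertical axis), with 1 point per background and a diamond for the mean of the 4, and bars of 1 SE. The mean lies at 2.24 for Slc2a1, 1.82 for P4ha2 and 1.55 for Hif1a with all 4 backgrounds above 0, and the B6 points of P4ha1 (-0.33) and Ankrd37 (-0.86) lie below 0.

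Background by background, the same 4 genes, P4ha2, Car9, Slc2a1 and Hif1a, rose in B6, C5F1 and B6xPWD adenoma, where 13%, 10.9% and 9.43% of all genes were called higher. In C5, where 2.59% were called higher, P4ha2, Slc2a1 and Hif1a passed. Slc2a1 rose by log2 1.90 ± 0.30 in B6, 2.05 ± 0.31 in C5, 2.40 ± 0.32 in C5F1 and 2.63 ± 0.32 in B6xPWD. Hif1a rose by 1.70 ± 0.32, 1.26 ± 0.32, 1.32 ± 0.32 and 1.93 ± 0.33 in the same order. Car9 rose by 1.03 ± 0.27 in B6, and its C5 value of 0.65 ± 0.27 did not pass (adjusted p = 0.298).

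Within C5 the calls of P4ha2 and Hif1a were close to the threshold (edgeR adjusted p = 0.0485 and 0.0192). P4ha2 lost its call without C5 adenoma replicate 1 or 2 and without each of the 3 C5 Min replicates, at log2 1.31 to 1.84. It also lost it without the filter on low counts and with only the compared groups in the fit (log2 1.56 and 1.55, edgeR adjusted p = 0.0611 and 0.0715). Hif1a lost its call without any single one of the 6 C5 libraries, at log2 1.2 to 1.32. Car9 lost its call in C5F1 without adenoma replicate 2 or 3 or Min replicate 2 or 3 (log2 0.81 to 0.90), and in B6xPWD without adenoma replicate 3 (0.54) or Min replicate 2 (0.84). With the block for same-numbered pairs, Ankrd37 fell in B6 adenoma (log2 -0.93, edgeR adjusted p = 0.0455), and Egln3 rose in C5F1 (0.66, 0.0354) and B6xPWD (0.99, 0.00495). Ankrd37 also passed in B6 without adenoma replicate 1 (-1.31, edgeR adjusted p = 0.0439), and Egln3 in B6xPWD without adenoma replicate 1 (1.33, 0.0107) or Min replicate 3 (1.54, 0.0103) and by DESeq2 (1.01, 0.0346).

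The adenoma change itself was compared between backgrounds. None of the 9 members tested differed from B6 in C5F1, C5 or B6xPWD (edgeR, adjusted p under 0.05), where 0%, 0.11% and 0.63% of all genes were called, and DESeq2 called 0 as well. At an unadjusted p under 0.05 there were 1 member in C5F1 (Ankrd37), 0 in C5 and 2 in B6xPWD (Egln3 and Ankrd37). The intervals were wide: the C5F1 minus B6 difference of Ankrd37 was log2 1.44 (95% interval 0.30 to 2.59), and that of Slc2a1 in B6xPWD 0.74 (-0.11 to 1.58). P4ha1, described only, differed from B6 by 0.84 ± 0.39 in B6xPWD, 0.60 ± 0.38 in C5F1 and 0.65 ± 0.38 in C5.

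Markers of other cell types are set beside these changes, against the same 23.7% of all genes called higher and 21.5% called lower. All 10 smooth muscle markers fell in adenoma, and their sum had a median of 713 CPM in adenoma (141 to 1540) and 1782 CPM in Min mucosa (270 to 3111). Of the fibroblast markers 4 of 10 rose and 1 fell (medians 707 and 572 CPM), of the endothelial markers 3 of 10 rose (122 and 103 CPM), and of the epithelial markers 1 of 10 rose and 5 fell (6439 and 7218 CPM). The endothelial count is near the share of all genes. Of the immune markers 4 of 9 fell (medians 116 and 170 CPM), whereas 3 of 9 rose within B6xPWD, where adenoma replicate 1 summed to 584 CPM and the other 2 adenomas to 133 and 144. All 10 Wnt target markers rose. No fibroblast, endothelial or epithelial marker was at 0 in any tissue group, and the part of these markers in the changes of the hypoxia genes was not tested.

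Strain differences were read in adenoma and in wild-type mucosa, all against B6, so the comparisons share the B6 libraries. In adenoma, 2 of 10 members fell in C5 against B6 (17.8% of all genes called, 8.28% lower): Slc2a1 with a log2 change of -1.16 ± 0.30 (adjusted p = 0.00652) and Vegfa with -1.11 ± 0.29 (adjusted p = 0.00842). Vegfa stood at 69.0, 78.3 and 50.6 CPM in B6 adenoma and at 37.5, 26.1 and 27.8 in C5, without overlap. Min mucosa, described only, was also highest by mean in B6, at 57.0 to 70.8 CPM. It held 18.9 to 31.5 CPM in C5, 26.6 to 57.3 in C5F1 and 31.1 to 45.8 in B6xPWD. In B6xPWD adenoma Vegfa fell (log2 -1.18 ± 0.30, adjusted p = 0.00588), at 25.7, 30.7 and 31.1 CPM, as 1 of 10 members against 6.98% of genes called lower. Slc2a1 there gave -0.68 ± 0.29 (adjusted p = 0.110) and passed without B6xPWD adenoma replicate 3 (-0.94, edgeR adjusted p = 0.0403), and P4ha2 passed by DESeq2 (-1.0, adjusted p = 0.0455). The calls of Vegfa in C5 and B6xPWD and of Slc2a1 in C5 held in each of their 12 alternatives.

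In C5F1 adenoma none of the 10 members passed (edgeR), against 0.483% of all genes called, with 2 at an unadjusted p under 0.05 (Vegfa and Slc2a1) and 0 by DESeq2. Vegfa there differed by log2 -0.94 (95% interval -1.50 to -0.37) and held 22.7, 42.8 and 36.9 CPM, below all 3 B6 adenomas. P4ha1 gave 0.04 ± 0.27 in C5, -0.16 ± 0.27 in C5F1 and -0.19 ± 0.27 in B6xPWD. P4ha2 gave -1.03 ± 0.38 in C5 (adjusted p = 0.0591), and DESeq2 placed it past the threshold (adjusted p = 0.0278). The Wnt target markers also differed: 6 of 10 fell in C5 against B6 adenoma. Their sum was 624 to 830 CPM in B6, 398 to 476 in C5F1, 191 to 297 in C5 and 148 to 370 in B6xPWD adenoma. Of the endothelial markers 2 of 10 fell in C5, with sums of 85.1 to 120 CPM against 141 to 175 CPM in B6. Both red blood cell markers tested fell (median log2 -2.49), with sums of 0.84 to 4.90 CPM in C5 and 8.54 to 15.9 CPM in B6, and 2 of 10 smooth muscle and 2 of 10 epithelial markers rose. The part of these markers in the levels of Slc2a1 and Vegfa was not tested.

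In wild-type mucosa none of the 10 members was called in C5F1, C5 or B6xPWD against B6 (edgeR), where 0.022%, 1.47% and 9.6% of all genes were called. At an unadjusted p under 0.05 there were 0 in C5F1, 1 in C5 (Egln3, log2 0.80 ± 0.36) and 1 in B6xPWD (Hif1a, -0.89 ± 0.32). DESeq2 called 0, 0 and 1 members, the last being Hif1a, which edgeR also called without B6xPWD replicate 3 (log2 -1.34, adjusted p = 0.0182). In C5, leaving out B6 replicate 3 gave a call of Epas1 (log2 1.33, edgeR adjusted p = 0.0430).

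PWD mucosa fell below B6 in 2 of 10 members, against 18.7% of all genes called and 8.79% called lower. Ankrd37 fell 6.71-fold (log2 -2.75 ± 0.62, adjusted p = 0.00172), with 0.51, 0.58 and 0.91 CPM in PWD and 6.19, 2.24 and 4.54 in B6, and the call held in all 12 alternatives. Each PWD library held 2 to 4 reads of Ankrd37, and the 9 wild-type libraries of the C5F1, C5 and B6xPWD groups held 1.10 to 4.65 CPM, above all 3 of PWD. Reads of every strain were aligned to mm10, and none of the alternatives changed the alignment. Whether PWD and B6xPWD reads align to it as well as B6 reads was not tested, for this gene or the others.

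Adm fell 5.24-fold in PWD (log2 -2.39 ± 0.82, adjusted p = 0.0391), with 3 reads in each PWD library (0.76, 0.43 and 0.91 CPM) and 6.34, 1.92 and 0.57 CPM in B6, so that the groups overlapped. Without B6 replicate 1 the value was -1.25 (edgeR adjusted p = 0.457), and without PWD replicates 1, 2 and 3 in turn it was -2.52, -2.03 and -2.62 (0.0780, 0.182 and 0.0552). Epas1 passed without B6 replicate 3 (log2 1.48, edgeR adjusted p = 0.00781), and Car9 without PWD replicate 1 or 3 (0.86 and 0.85, 0.0466 and 0.0485). P4ha1 in PWD, described only because B6 wild-type mucosa entered the contrast that chose it, gave 0.61 ± 0.30. Fibroblast markers summed to 661 to 893 CPM in PWD and 360 to 474 CPM in B6 wild-type mucosa, and their part in the P4ha1 level was not tested.

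AZA was given to organoids of both strains, in which the stromal markers were low: in control cultures the endothelial sum was 3.46 to 7.58 CPM and the fibroblast sum 18 to 38.2 CPM, against 5550 to 5866 CPM for epithelium. In B6 control organoids the endothelial markers Cdh5, Kdr, Eng, Emcn and Plvap and the fibroblast markers Col1a2, Col3a1, Col6a1, Pdgfrb, Dcn and Lum were at 0 counts. Of the same lists, only Plvap and Col6a2 were at 0 counts in C5 control organoids. Over B6 and C5 together, 6 of 10 members fell with AZA and none rose (edgeR), against 13.5% of all genes called lower and 15% called higher. The members' median log2 change was -0.87 and that of all genes 0.01. DESeq2 called 5 of the 10, without P4ha1 (log2 -0.81, adjusted p = 0.188), and at an unadjusted p under 0.05 there were 0 members higher.

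Adm, the adrenomedullin gene, fell 8.54-fold (log2 -3.09 ± 0.53, adjusted p = 0.000478). It went from 22.8 and 20.7 CPM to 1.03 and 1.21 in B6, and from 16.5 and 5.42 CPM to 4.64 and 0.91 in C5, so that no treated library reached a control library of its strain. Slc2a1 fell 2.72-fold (log2 -1.45 ± 0.24, adjusted p = 0.000384), from 151 and 188 CPM to 43.8 and 61.1 in B6 and from 142 and 97.6 CPM to 74.9 and 28.3 in C5. P4ha2 fell 3.44-fold (log2 -1.78 ± 0.42, adjusted p = 0.00523), from 29.6 and 28.5 CPM to 8.90 and 8.98 in B6 and from 35.4 and 24.4 CPM to 14.2 and 1.60 in C5. For these 3 genes the treated and control libraries did not overlap in either strain.

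P4ha1 fell 1.78-fold (log2 -0.83 ± 0.28, adjusted p = 0.0379), from 123 and 141 CPM to 52.9 and 112 in B6 and from 133 and 109 CPM to 91.7 and 29.4 in C5, again with no overlap within a strain. Its call was lost without B6 AZA replicate 1 (log2 -0.60, edgeR adjusted p = 0.0631) and without B6 control replicate 2 (-0.79, 0.0508). Car9 fell by 0.87 ± 0.28 on the log2 scale (adjusted p = 0.0318), from 98 and 121 CPM to 47.9 and 69.4 in B6 and from 109 and 62.6 CPM to 72.1 and 22.4 in C5, where the groups overlapped. It lost its call without B6 control replicate 2 (-0.80, 0.0528). Vegfa fell by 0.48 ± 0.15 (adjusted p = 0.0243), with 214 and 215 CPM against 120 and 150 in B6, and lost its call in each of 4 single omissions: B6 AZA replicate 1, B6 control replicate 2, C5 control replicate 3 and C5 AZA replicate 4 (edgeR adjusted p = 0.0838, 0.0536, 0.0693 and 0.0623; log2 -0.41, -0.49, -0.37 and -0.37).

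The HIF subunit genes did not follow. Hif1a stood at 309 and 269 CPM in B6 control and 351 and 258 with AZA, and at 277 and 358 against 283 and 291 in C5 (log2 -0.04 ± 0.13, 95% interval -0.30 to 0.22). Epas1 gave 0.33 ± 0.19 (adjusted p = 0.229): its C5 libraries held 21.4 and 17.4 CPM in control and 34.6 and 34.0 with AZA, and its B6 libraries 40.4 and 39.4 against 32.5 and 38.3.

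Egln3 and Ankrd37 were lower in B6 (352 and 362 against 82.4 and 175 CPM for Egln3, 115 and 145 against 30.1 and 74.3 CPM for Ankrd37), but the C5 libraries with AZA stood far apart. Replicate 3 held 294 CPM of Egln3 and 106 CPM of Ankrd37, and replicate 4 held 22.1 and 3.20 CPM, against 281 and 108 CPM and 147 and 47.3 CPM in their controls. Over both strains they gave log2 -0.88 ± 0.49 and -1.06 ± 0.58 (adjusted p = 0.204 and 0.191). Without the filter on low counts both passed at nearly the same change (-0.89 and -1.07, edgeR adjusted p = 1.51e-09 and 1.99e-09). Without C5 AZA replicate 3 these became -2.30 and -3.11 (edgeR adjusted p = 2.99e-09 and 5.53e-09), without C5 control replicate 4 -1.15 and -1.37 (0.0150 and 0.0134), and without B6 AZA replicate 2 -1.20 and -1.46 (0.0230 and 0.0204). The count of members that fell was 3 without B6 control replicate 2 and 8 without C5 AZA replicate 3.

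**Figure D3:**
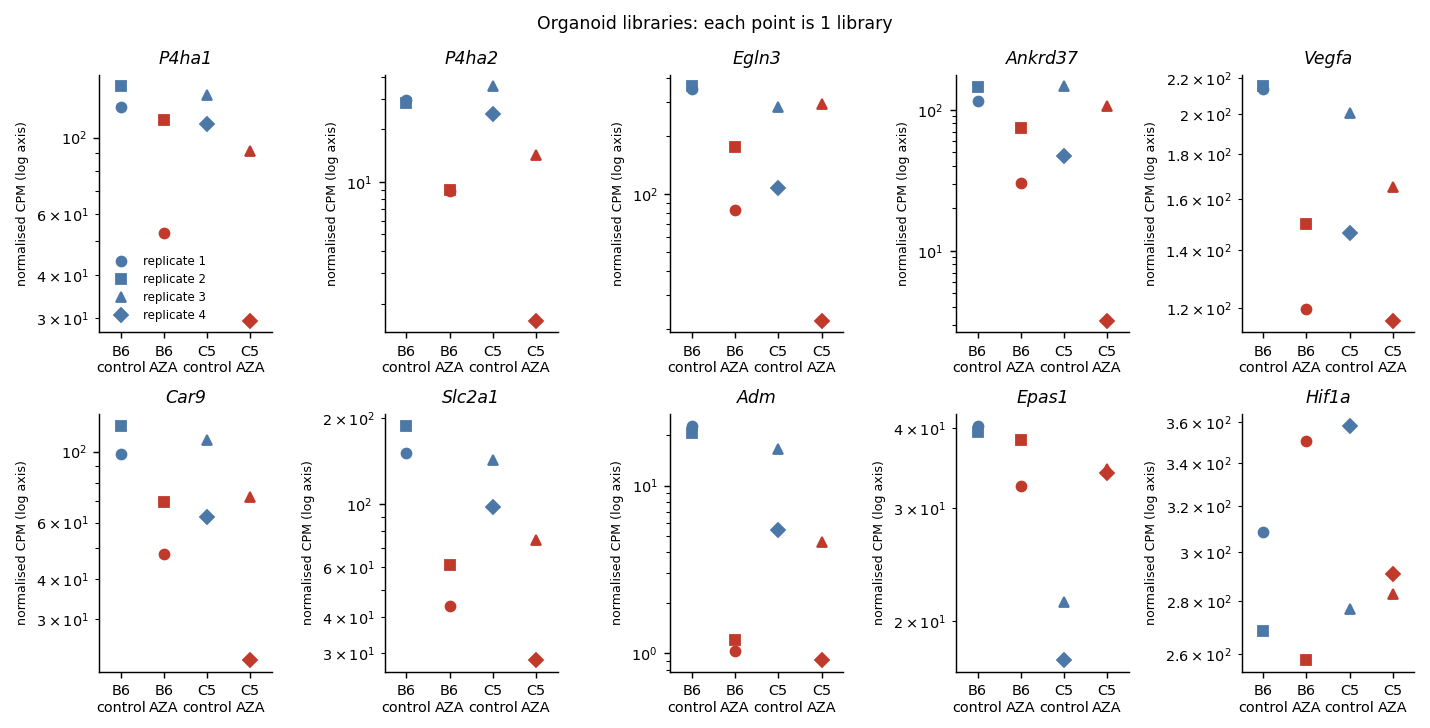
Normalised CPM (logarithmic vertical axes, each with its own range) of the 10 genes in the 8 organoid libraries, with control in blue, AZA in red and a symbol for each replicate number. Treated libraries lie below their controls for P4ha1, P4ha2, Slc2a1 and Adm, and the C5 AZA libraries (triangle and diamond) are far apart for Egln3, 294 and 22.1 CPM, and Ankrd37, 106 and 3.20 CPM.

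Taken by strain, 3 of 10 members fell in B6 organoids (Vegfa, Slc2a1 and Adm, against 6.91% of all genes called lower) and 2 of 10 in C5 organoids (P4ha2 and Slc2a1, against 6.49%). Adm fell 19.4-fold in B6 (log2 -4.28 ± 0.79, adjusted p = 0.00184) and gave -1.91 ± 0.71 in C5 (adjusted p = 0.0882). Slc2a1 fell by 1.70 ± 0.34 in B6 and 1.2 ± 0.34 in C5 (adjusted p = 0.00339 and 0.0289), and P4ha2 by 1.86 ± 0.60 in C5 (adjusted p = 0.0494). In C5 both calls were lost without control replicate 3 (P4ha2 -1.58, Slc2a1 -0.91, edgeR adjusted p = 0.0882 and 0.0593) and without AZA replicate 4 (-1.06 and -0.67, 0.122 and 0.108), while without AZA replicate 3 there were 7 calls and without control replicate 4 there were 5. In B6 Vegfa lost its call without control replicate 1 or 2 or AZA replicate 1 (log2 -0.69, -0.67 and -0.52, edgeR adjusted p = 0.147, 0.151 and 0.261), and without AZA replicate 2 there were 5 calls.

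The AZA change did not differ between C5 and B6 in any of the 10 members by edgeR, where 0% of all genes were called, nor by DESeq2, with Adm (log2 2.37, 95% interval 0.34 to 4.41) and Epas1 (1.0, 0.24 to 1.76) at an unadjusted p under 0.05. Without C5 AZA replicate 3, Ankrd37 differed by -3.59 (edgeR adjusted p = 0.0146). Control organoids of C5 and B6 differed in none of the 10 (edgeR, 0.209% of all genes called, and 0 members by DESeq2), with Epas1 alone at an unadjusted p under 0.05 (log2 -1.05 ± 0.28, adjusted p = 0.400). With AZA the fibroblast markers summed to 72.0 to 98.8 CPM, the smooth muscle markers to 139 to 222 CPM (control 45.2 to 92.2), and the epithelial markers to 7382 to 7908 CPM. The Wnt target markers summed to 116 to 198 CPM with AZA and 222 to 300 CPM in control. The part of these markers in the changes was not tested.

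The wider pathway was read through 4 lists, which also hold the 10 members and were chosen with results of these data known. Their counts stand against 23.7% of all genes called higher and 21.5% lower in adenoma, and 15% higher and 13.5% lower with AZA. In the control machinery of HIF (17 genes tested), 3 rose and 3 fell in adenoma, with a median log2 change of 0.12, a count below those shares. Arnt2, a partner subunit of the HIF proteins, rose with Hif1a and Egln3 (log2 1.80 ± 0.20, adjusted p = 9.38e-09). Cited2, which competes with HIF for its coactivators, fell by 0.42 ± 0.17, the partner Arnt by 0.28 ± 0.10 and the asparagine hydroxylase Hif1an by 0.18 ± 0.07. These 3 calls were close to the threshold: of 31 alternatives, 11 ended that of Cited2, 7 that of Hif1an and 2 that of Arnt, with edgeR adjusted p up to 0.0904, 0.0958 and 0.0512. With AZA 1 of the 17 rose, Arnt2 (1.55 ± 0.30, adjusted p = 0.00124), and 1 fell, the main HIF prolyl hydroxylase Egln1 (by 1.0 ± 0.18, adjusted p = 0.000796).

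Of 21 genes of glycolysis and glucose uptake tested, 8 rose and 2 fell in adenoma (median 0.38), and 1 rose and 11 fell with AZA (median -0.65). The largest rises in adenoma after Slc2a1 were those of Slc16a3, a lactate exporter (log2 1.38 ± 0.23), and Pfkl, the liver-type phosphofructokinase (1.10 ± 0.14). Pfkfb4, which sets the level of a phosphofructokinase activator, fell in adenoma by 0.92 ± 0.15 and Pfkp, the platelet-type phosphofructokinase, by 0.39 ± 0.07. With AZA, Pdk1, the kinase that blocks pyruvate entry into mitochondria, fell by 1.58 ± 0.26 and the hexokinase Hk2 by 1.38 ± 0.14, and Pfkfb4 rose by 0.78 ± 0.16.

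Among other HIF targets, 12 of 30 rose and 5 fell in adenoma (median 0.32), and 3 of 27 rose and 14 fell with AZA (median -0.81). In adenoma the mTORC1 inhibitor Ddit4 rose by 1.24 ± 0.15 (log2 change ± SE). The chemokine receptor Cxcr4 rose by 1.5 ± 0.35, a value that B6xPWD adenoma replicate 1 raised: that library held 57.4 CPM, the other 11 adenomas 2.32 to 13.9 CPM and the 12 Min libraries 1.17 to 8.92 CPM. Without it the change of Cxcr4 was 0.83 (edgeR adjusted p = 0.00670), and its immune marker sum of 584 CPM was the highest of the adenomas, whose part in this value was not tested. Angptl4, an inhibitor of lipoprotein lipase, fell by 1.26 ± 0.30, and Insig2 and Mxi1 by 0.67 ± 0.16 and 0.57 ± 0.10. With AZA the endoplasmic oxidase Ero1l fell by 1.94 ± 0.31 and the lipid droplet gene Hilpda by 2.44 ± 0.76, while Edn1, the endothelin gene, rose by 2.14 ± 0.66, Insig2 by 0.89 ± 0.19 and Angptl4 by 0.64 ± 0.22. Hilpda lost its call without B6 control replicate 2 (-1.50, edgeR adjusted p = 0.230) or C5 control replicate 4 (-2.44, 0.0544), and Edn1 without C5 AZA replicate 4 (0.86, 0.366) or B6 AZA replicate 1 (1.75, 0.0843). Without C5 AZA replicate 3 Hilpda gave -3.48. Angptl4 lost its call without B6 AZA replicate 1, B6 control replicate 2, C5 AZA replicate 3 or C5 control replicate 4 (0.51 to 0.60, edgeR adjusted p = 0.0666 to 0.183).

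In the list of collagen hydroxylation and crosslinking, 8 of 17 rose and 2 fell in adenoma (median 0.37). P4ha2 led it, followed by Lox, the lysyl oxidase (log2 1.0 ± 0.22), and Plod3, a lysyl hydroxylase (0.98 ± 0.10). P4hb, the β subunit that P4ha1 and P4ha2 bind, fell by 0.37 ± 0.14, from 890 ± 111 to 690 ± 93.9 CPM, and lost its call without B6 Min replicate 1 or B6xPWD Min replicate 3 (log2 -0.33 and -0.34, edgeR adjusted p = 0.0566 and 0.0550). With AZA 2 of 11 rose and 2 fell, near the shares of all genes: P4hb rose by 0.58 ± 0.12, while its partners P4ha1 and P4ha2 fell. The other riser, Leprel2, was at 0 counts in all 4 control libraries and at 2.02 ± 1.15 CPM (SD, n = 4) with AZA. In C5 against B6 adenoma, where 17.8% of all genes were called and 8.28% called lower, the same 4 lists gave 1 higher and 2 lower of 17, 2 and 6 of 21, 1 and 4 of 30, and 0 and 2 of 17, with Pfkl (log2 -1.23 ± 0.28), Ddit4 (-1.13 ± 0.29) and Lox (-1.72 ± 0.40) among those that fell. Ddit4 lost that call without C5 adenoma replicate 2 or 3 (-0.93 and -0.98, edgeR adjusted p = 0.0557 and 0.0570). In PWD against B6 mucosa, where 18.7% of all genes were called, the counts were 1 and 2, 4 and 1, 3 and 2, and 3 and 1, near that share.

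**Figure D4:**
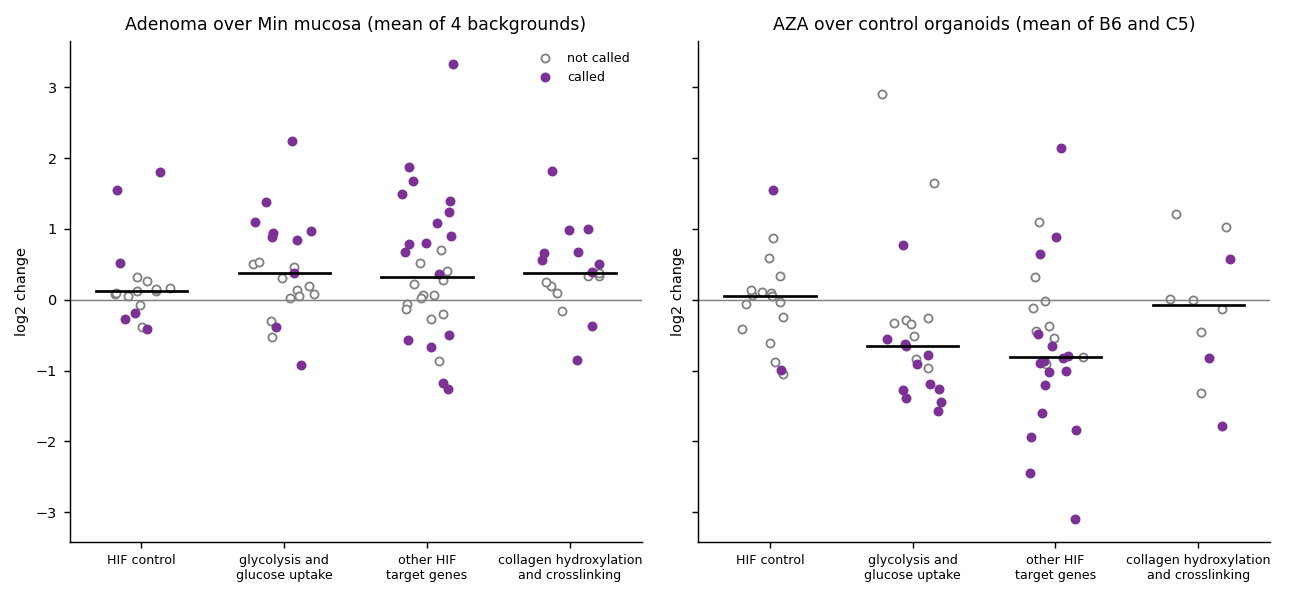
Log2 change of the tested genes of the 4 lists (1 point per gene, filled where the adjusted p was under 0.05, bar at the list's median) in adenoma over Min mucosa on the left and AZA over control organoids on the right. The medians of the glycolysis list are 0.38 and -0.65 and those of the other HIF targets 0.32 and -0.81, and Leprel2, at 0 counts in control organoids, is not drawn on the right.

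Across the 13 tissue group means the members did not form 1 pattern. As a description over groups that share libraries and depth, P4ha1 correlated most with Egln3 (Pearson r = 0.85 of log2 CPM) and P4ha2 (0.82) and least with Vegfa (0.35). Over the 39 single libraries the order was another, with P4ha2 (0.65) ahead of Egln3 (0.55) and Epas1 (0.30) below Vegfa (0.33). Hif1a correlated with Car9 at 0.93, with P4ha2 at 0.88 and with Slc2a1 at 0.85, but with Vegfa at 0.04 and with Ankrd37 at 0.23. Ankrd37 and Adm were at 0.87 over the groups and 0.54 over the libraries. Epas1 correlated below 0.60 with every other member.

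Among 9707 genes expressed at 5 CPM or more on average, the 5 closest to P4ha1 over those 13 groups were Ednra (r = 0.895, Spearman's rho 0.885), Pde3b (0.876, 0.780), Il1r1 (0.874, 0.830), Gem (0.870, 0.923) and Bdkrb2 (0.860, 0.780). The 5 closest to Slc2a1 were Notum (0.978, 0.863), Baiap2 (0.975, 0.890), Abcc1 (0.974, 0.813), Sorcs2 (0.974, 0.879) and Wdr4 (0.973, 0.907). Ednra and Bdkrb2 are receptors for endothelin and bradykinin, and Notum is a secreted Wnt inhibitor and 1 of the 10 Wnt target markers.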

How the data were processed

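RNA depleted of ribosomal RNA was sequenced single-end (Illumina Genome Analyzer IIx), per the labels' protocols. The deposited table holds the authors' whole-number read counts per gene. BWA, HTSeq and the mm10 build are named in the submitters' processing notes, and versions are not given in the sources used here. The 5 HTSeq summary rows, 40.7 to 53.9% of tissue reads and 46.4 to 63.5% of organoid reads, were left out.

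Counts were normalised by TMM and tested with edgeR 4.0.16 (R 4.3.3), quasi-likelihood, over all groups of tissue and of organoids apart, after filterByExpr (minimum count 10, total 15). The p-values were adjusted by Benjamini-Hochberg over all genes tested, with a threshold of 0.05. Log2 changes are unshrunken, errors on them are SEs, and intervals (95%) come from the SE. DESeq2 1.42.0 was an alternative, and the procedure was checked on simulated counts. Exon lengths come from GENCODE vM21.

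No 2 libraries of a group agreed within sampling noise (lowest chi-square per degree of freedom 7.62 over 43 pairs). Same-numbered adenoma and Min mucosa libraries deviated together (r 0.107 to 0.455, 12 of 12 pairs above 0.1, each best with its own number), so the numbers were taken to pair them. This pairing comes from the data, since the labels do not state it. The main fit, which gave the adenoma p-values, held no term for the pairs. A block for them was run only as an alternative.

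The members, lists and tests were chosen with earlier results of these data known. All 10 members are named. From each list, up to 3 called genes with the largest rise and 3 with the largest fall and at least 5 CPM on the higher side are named, except a gene among the other HIF targets that is counted but not reported by name here. Min against wild-type mucosa, and P4ha1 in adenoma against Min mucosa, are described with no test. The strain comparisons in wild-type mucosa share libraries with the contrast that chose P4ha1. The comparisons of adenoma with Min mucosa and of Min with wild-type mucosa share the Min libraries.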

Additional observations from a re-analysis of the deposited data

How the results depend on the processing

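Alternatives were DESeq2, its size factors in edgeR, no filter on low counts, Rn45s left out, a replicate block, only the compared groups, and each library left out; for named genes of the lists they were run after seeing the data. No direction of a called member reversed. For the count of called members, the cause of each difference was not tested. In adenoma against Min mucosa, only the compared groups gave 2 in B6xPWD in place of 4 (Car9 log2 1.0, edgeR adjusted p = 0.151; P4ha2 did not pass the filter on low counts). A replicate block of background and number, chosen after seeing the data, gave 6 over the mean in place of 5, and 5, 5, 3 and 5 in B6, C5F1, C5 and B6xPWD in place of 4, 4, 3 and 4; the changed calls stand in the report and no other call changed. With a block of replicate number alone, P4ha2 in C5 gave log2 1.56 (edgeR adjusted p = 0.0525). In strain comparisons, DESeq2 gave 1 in place of 0 in B6xPWD mucosa and 2 in place of 1 in B6xPWD adenoma. In PWD mucosa the replicate block gave 1 in place of 2 (Adm log2 -2.36, edgeR adjusted p = 0.0510), and only the compared groups also gave 1. Only the compared groups gave 1 in place of 0 in C5F1 adenoma (Vegfa) and 4 in place of 2 in C5 adenoma (P4ha2 and Adm also).

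In organoids, same-numbered control and AZA libraries did not deviate together over all genes (r -0.000293 in B6 and -0.0117 in C5). The main fit held no term for them. Many members did keep the order of the numbers in control and AZA alike. In C5 these were P4ha1, P4ha2, Egln3, Ankrd37, Vegfa, Car9, Slc2a1, Adm, Epas1 and Hif1a. The C5 AZA values of Epas1 (34.6 and 34.0 CPM) and Hif1a (283 and 291 CPM) lay close together. In B6 the members that kept it were P4ha1, Egln3, Ankrd37, Vegfa, Car9, Slc2a1 and Hif1a, but not P4ha2, Adm or Epas1. The replicate block gave 8 called members in place of 6 for the mean, 8 in place of 3 in B6 and 7 in place of 2 in C5. Without the filter the counts were 8 for the mean (Egln3 and Ankrd37 also), 8 in B6 and 6 in C5, and 1 in place of 0 for C5 against B6 in control organoids and for their difference in AZA change. Only the compared groups gave 7 in B6 and 0 in C5, and DESeq2 size factors 1 in C5. No block could be run for C5 against B6 control organoids, which share no number.

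Leaving out 1 library gave 4 to 6 members over the adenoma mean, 4 to 5 in B6, 3 to 4 in C5F1, 1 to 2 in C5 and 3 to 5 in B6xPWD. It gave 0 to 1 in C5 and in B6xPWD mucosa, 1 to 3 in PWD mucosa, 0 in C5F1 adenoma, 2 in C5 adenoma and 1 to 2 in B6xPWD adenoma. With AZA it gave 3 to 8 for the mean, 2 to 5 in B6, 0 to 7 in C5 and 0 to 1 for their difference. Where it left 1 organoid library in a group, that library was assumed to vary like the others. Depth limits Ankrd37, Adm and P4ha2 most, with 0 to 4 reads in some mucosa libraries.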
